A study of Hydra vulgaris with 15 samples.

Results

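The 276 most abundant transcripts in the head and the body column of Hydra vulgaris, a freshwater polyp, are described here. They were chosen by level alone: a transcript was taken if its count scaled to the column total (counts per 1e6, CPM) averaged at least 500 CPM over all 15 libraries. Of 79784 assembled contigs, 276 met this limit, which is 0.346% of them. All 276 also passed the filter on low counts, which left 31142 transcripts for testing. The members passed because of the level that chose them, so their high abundance is a description and not a result.

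The libraries came from a study of the effect of the transcription factor Zic4 on heads and body columns. All animals were of the strain Basel1, were starved for 4 days, and were electroporated 4 times, on every other day, while intact. RNA was taken 1 day after the last electroporation, from 20 polyps per condition, and the labels give the library kit as stranded TruSeq for messenger RNA. There were 4 control heads and 3 control body columns (replicate numbers 2, 3 and 4), labelled wild-type, and 4 heads and 4 body columns of animals labelled Zic4 RNAi. RNA interference (RNAi) uses double-stranded RNA to reduce the messenger of the gene it matches. The labels do not say what the control animals received in the electroporation, nor whether replicates came from separate animals, so p-values measure the spread between these samples, which may be technical. The source field of every library names the whole animal, while the tissue field gives head or body column, and groups follow the tissue field and the titles.

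Library totals lay between 16020872 and 22554240 counts. The deposited values were estimated counts per contig with no gene names. None of the contig IDs matched a table of 28925 RefSeq genes, so transcripts are given by ID, their functions are not stated, and Zic4 itself and tissue markers were not analysed here. Sequences of the contigs were not used here either.

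Hydra is a tube of epithelium in which stem cells of the body column divide continually, and their progeny move toward the head and the foot, where cells reach their final form. Zic4 belongs to a family of zinc finger transcription factors. In animal tissues, the messenger RNAs that take most of a library are usually those of ribosomal proteins, elongation factors, the cytoskeleton and products of specialised cells. Because a library has a fixed number of reads, a transcript that takes a large share of it lowers the share of all others.

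The members took 44.9% of the counts of a library on average. This share was uneven: the most abundant transcript alone took 4.03%, the first 3 took 7.36%, the first 10 took 13.0% and the first 50 took 24.6%. The median member averaged 928 CPM and the highest 40254 CPM. At the top, 6 members averaged 10000 CPM or more, 11 averaged 5000 CPM or more and 124 averaged 1000 CPM or more. These values are shares of reads. They were not divided by transcript length, so their order is not an order of molecules.

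In control heads the members held 41.4%, 44.7%, 43.2% and 40.0% of the 4 libraries, a mean of 42.4% ± 2.05 (SD, n = 4). RNAi heads gave 46.1%, 48.0%, 44.1% and 42.4%, a mean of 45.1% ± 2.45 (SD, n = 4). The head groups overlapped, and the means differed by little more than the SD within a group. In control body columns the shares were 46.8%, 48.6% and 44.7% (46.7% ± 1.98, SD, n = 3), and in RNAi body columns 46.4%, 46.7%, 45.0% and 44.9% (45.8% ± 0.937, SD, n = 4). These groups overlapped as well.

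**Figure D1:**
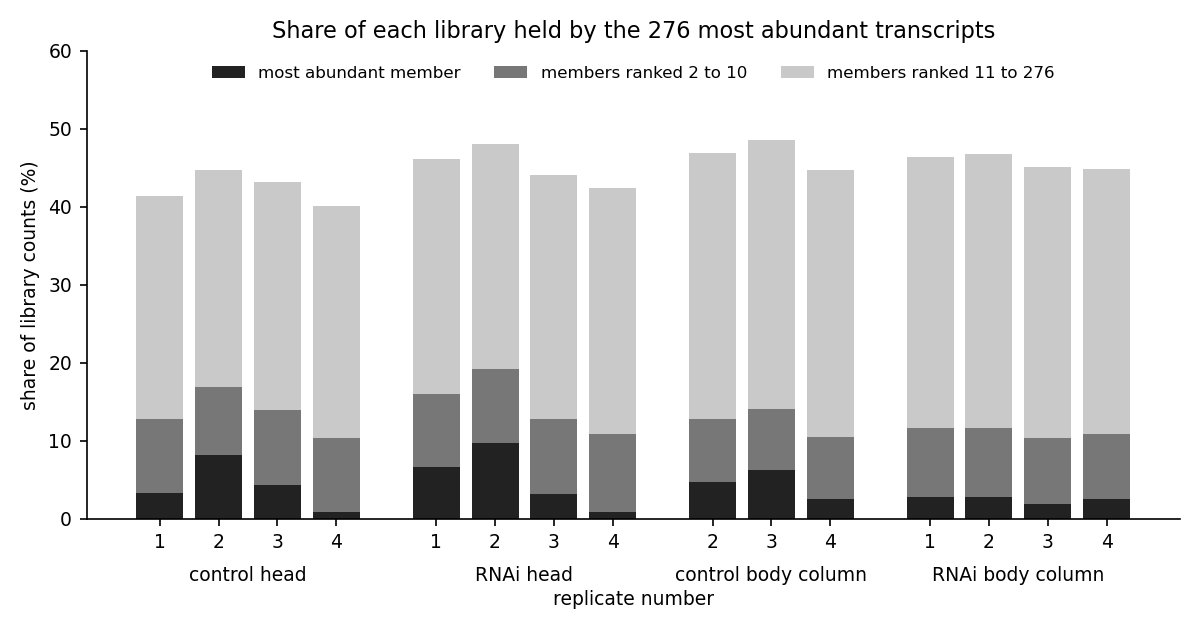
Share of the counts of each of the 15 libraries (vertical axis, percent) held by the 276 most abundant transcripts, by group and replicate number. Black is the most abundant transcript, dark gray the members ranked 2 to 10 and light gray the rest. The black part ranged from 0.838% to 9.75% of a library.

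In heads, much of the spread in this share went with a single transcript. GGKF01002923.1, the most abundant, took 3.34%, 8.12%, 4.31% and 0.838% of the control heads and 6.56%, 9.75%, 3.19% and 0.862% of the RNAi heads. It took 4.68%, 6.30% and 2.52% of the control body columns and 2.82%, 2.77%, 1.83% and 2.47% of the RNAi body columns. In both head groups replicate 2 was the highest and replicate 4 the lowest, and the transcript ranked 8th in control head 4 and 7th in RNAi head 4. It passed the threshold in no comparison. With its counts left out, the members held 39.4%, 39.8%, 40.6% and 39.5% of the control heads (39.9% ± 0.557, SD, n = 4). The RNAi heads then gave 42.3%, 42.4%, 42.2% and 41.9% (42.2% ± 0.233, SD, n = 4). Without it, every RNAi head lay above every control head. Control body columns averaged 44.2% ± 0.969 (SD, n = 3) and RNAi body columns 44.4% ± 0.783 (SD, n = 4), with overlap. No p-value is given for these sums, since the members were chosen by level with these values known.

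The second transcript, GGKF01078627.1, was steady by comparison. On the scale of CPM corrected for library composition with TMM factors (TMM-scaled CPM, used from here on for single transcripts), it measured 18126, 17802, 18929 and 17591 in control heads and 20437, 21357, 22287 and 21500 in RNAi heads. Control body columns gave 23961, 22235 and 22048, and RNAi body columns 28100, 28194, 26308 and 22916. The head groups did not overlap, and the body column groups did. The rise in RNAi heads was 0.24 on the log2 scale (SE 0.062, edgeR adjusted p = 0.0408), but it was 0.12 with an adjusted p of 0.332 when libraries were scaled by their totals alone, and −0.09 once a trend with abundance was removed. The third transcript, GGKF01004284.1, was higher in control heads (12068 ± 890, SD, n = 4) than in control body columns (8763 ± 594, SD, n = 3), by 0.46 on the log2 scale (SE 0.086, edgeR adjusted p = 0.000882).

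Much the same transcripts led every group. The 10 most abundant transcripts of the 4 groups comprised 13 in all, and 7 of them were in the first 10 of each group. Control heads and RNAi heads had the same 10, control and RNAi body columns shared 9, and control heads and control body columns shared 7. Of the 276 members, 181 measured at least 500 CPM in every library and 215 averaged that much in all 4 groups. At the other end, 6 members fell under 100 CPM in at least 1 library. The ratio of the highest to the lowest library had a median of 1.59 over the members, was under 2 for 207 of them and reached 10 for 10 of them.

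The limit of 500 CPM cut through a continuous range. Just inside it lay GGKF01079560.1 with a mean of 504 CPM and GGKF01061557.1 with 503 CPM, and just outside it lay GGKF01041054.1 with 499 CPM and GGKF01037864.1 with 494 CPM. A further 59 transcripts reached a mean of 500 CPM in at least 1 group without being members, and 103 reached 500 CPM in at least 1 library.

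Members varied little between replicates. The coefficient of variation (CV, the SD as a percent of the mean) within groups, averaged over the 4 groups, had a median of 6.22% over the members, and 211 of the 276 were under 10%. Counting error alone would give a median CV of 0.776% at the members' depth, far under the spread measured. Transcripts at 100 to 500 CPM had a median CV of 7.20%, those at 10 to 100 CPM had 10.9%, and all transcripts tested had 28.6%. By group, the median over members was 7.39% in control heads, 6.45% in control body columns, 5.40% in RNAi heads and 5.85% in RNAi body columns.

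**Figure D2:**
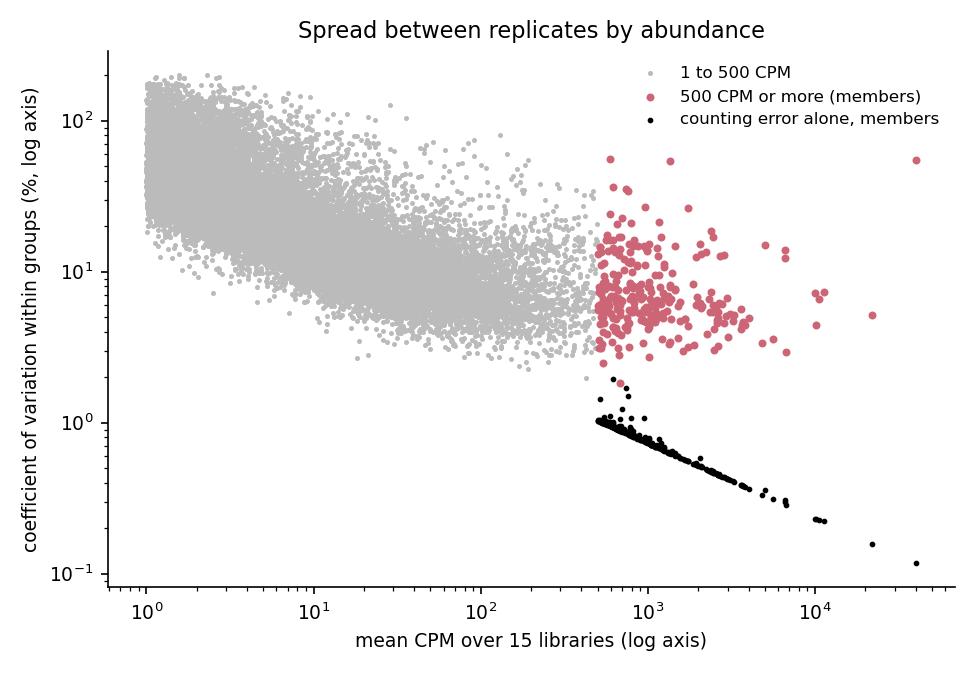
Coefficient of variation within groups (percent, log axis, mean of the 4 groups) against mean CPM over 15 libraries (log axis). Red points are the 276 members, gray points transcripts at 1 to 500 CPM, and black points the counting error expected for each member; 6 members lie above 30%.

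The most variable members were GGKF01002921.1, with a mean CV of 55.6%, and the most abundant transcript, with 54.8%. GGKF01002921.1 measured 381, 1064, 550 and 114 TMM-scaled CPM in control heads and 1010, 1581, 503 and 124 in RNAi heads. Its order across libraries was therefore close to that of the most abundant transcript. Over the 15 libraries its log2 CPM correlated with that of GGKF01002923.1 at r = 0.991, and GGKF01002920.1 did so at r = 0.976. No other member reached 0.9: the next, GGKF01071868.1, had r = 0.434, and the median over the other members was 0.019. These r describe libraries that share depth and composition, and no test was made of them. The 3 IDs that vary together have accession numbers at most 3 apart, and similar contigs can exchange reads, so the values of each alone are uncertain. At the other extreme, GGKF01045828.1 had a mean CV of 1.84%, with 539, 547, 540 and 542 TMM-scaled CPM in control heads and 716, 713 and 720 in control body columns. GGKF01055043.1 followed with 2.50%.

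Heads and body columns of control animals differed for most members. Of the 276, 47 were called higher in heads and 173 higher in body columns, where called means an adjusted p under 0.05 in edgeR's quasi-likelihood test over all transcripts. That is 220 members, or 79.7%, against 28.7% of all transcripts tested (14.6% higher in heads and 14.1% higher in body columns). The members' median difference, head against body column, was −0.37 on the log2 scale, and over all transcripts it was 0.072. The groups did not overlap for 222 members, against 36.9% of all transcripts. In bulk tissue, fewer cells of a type and less RNA per cell cannot be told apart.

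The majority on the body column side was larger than in the class below. Among transcripts at 100 to 500 CPM, 315 were called higher in heads and 499 in body columns, 67.6% of 1204, with a median of −0.11. The split depended on scaling. Library totals alone gave 57 and 145 members, with a median over all transcripts of 0.19 in place of 0.072, and the members lay 0.44 under that median in both cases. Removal of the trend with abundance gave 71 and 139 members, with a median of −0.18.

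Large differences made up a similar share of the members and of all transcripts tested, but a smaller share than in the classes just below the members. Differences called and at least 1 in log2 were found for 12 members on the head side and 22 on the body column side, and only 2 on each side reached 3. That is 34 of 276 members at 1 or more, against 4318 of 31142 transcripts tested (2634 on the head side and 1684 on the other). At 100 to 500 CPM it was 246 of 1204, and at 10 to 100 CPM 1330 of 8068. The median SE was 0.074 on the log2 scale among members and 0.37 over all transcripts tested, most of which are rarer and harder to call. GGKF01026235.1 measured 1162, 1118, 1267 and 911 TMM-scaled CPM in control heads and 39.4, 103 and 38.0 in control body columns. Its difference was 4.21 on the log2 scale (SE 0.48, edgeR adjusted p = 1.09e-05) and 4.27 after RNAi. GGKF01026231.1, whose accession number lies 4 away, differed by 4.02 (SE 0.46, edgeR adjusted p = 1.18e-05). Heads and body columns overlapped for neither contig.

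On the body column side, GGKF01045106.1 measured 133, 163, 74.0 and 51.7 TMM-scaled CPM in control heads and 1888, 1498 and 1219 in control body columns. The difference was −3.86 on the log2 scale (SE 0.44, edgeR adjusted p = 1.09e-05), and −4.50 after RNAi. GGKF01003961.1 measured 78.1, 151, 152 and 91.0 in control heads and 1671, 1759 and 1472 in control body columns, a difference of −3.79 (SE 0.20, edgeR adjusted p = 1.44e-08).

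The tissue pattern was largely repeated after RNAi, in libraries not compared above, though both comparisons share the fit's estimate of spread. In RNAi animals 44 members were called higher in heads and 155 higher in body columns (199, or 72.1%, against 25.6% of all transcripts; 13.1% and 12.5% by direction). With the trend removed these were 72 and 102. The members' median was −0.27, and the groups did not overlap for 198 members, against 29.2% of all transcripts. Called in both comparisons were 186 members, 84.5% of the 220 and 93.5% of the 199, all in the same direction, 35 on the head side and 151 on the body column side. With 220 and 199 of the 276 called, many would be called in both without any relation between the comparisons. The same overlap over all transcripts is not given here. The tissue difference was smaller in size after RNAi for 212 of the 276 members, with a median size of 0.51 in controls and 0.34 after RNAi. Under 4 other scalings this number was between 194 and 215. With library totals alone the medians were 0.43 and 0.29, and with the trend removed 0.36 and 0.22. A narrower range after RNAi was not particular to the members. Over all transcripts tested, the quartiles of the tissue difference were −0.45 and 0.75 in controls and −0.43 and 0.53 after RNAi. At 100 to 500 CPM they were −0.42 and 0.30, then −0.35 and 0.26.

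**Figure D3:**
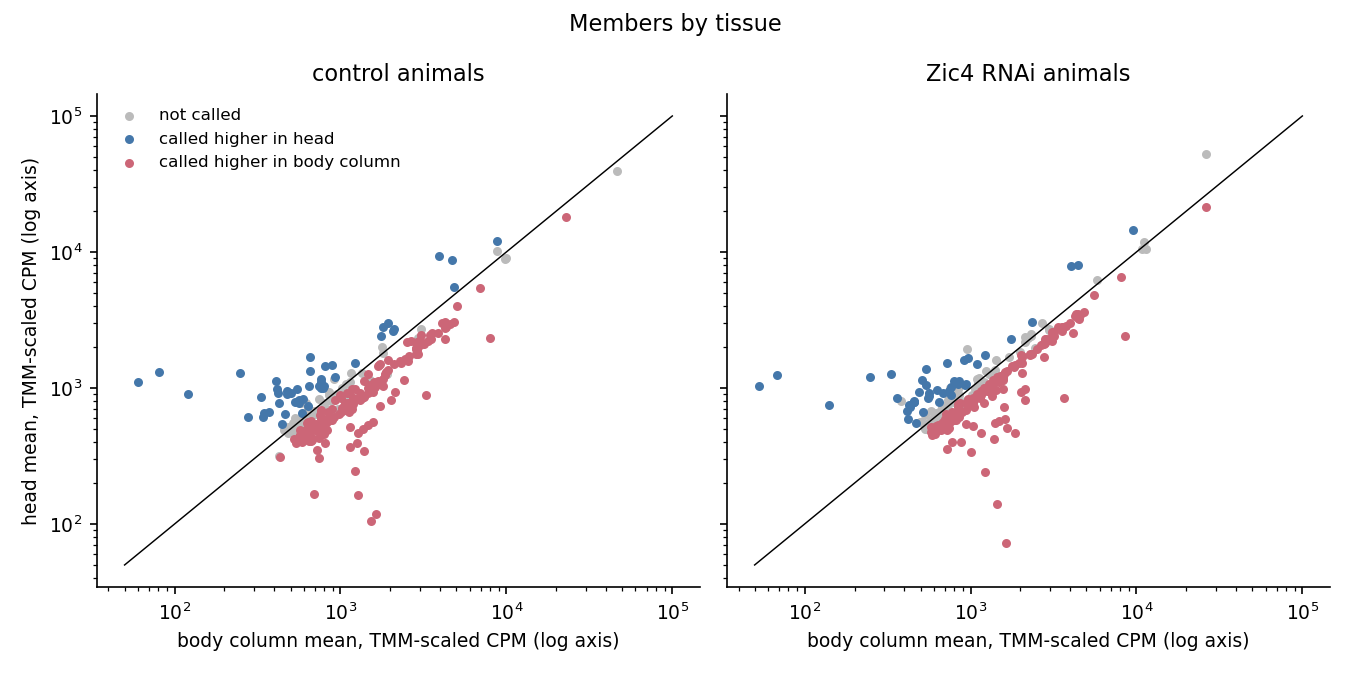
Mean TMM-scaled CPM of each of the 276 members in heads (vertical, log axis) against body columns (horizontal, log axis), in control and RNAi animals, with the line of equality. Blue marks members called higher in heads (47 and 44) and red those called higher in body columns (173 and 155); with library totals alone these were 57 and 145 in controls.

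Members were also grouped by their call in control animals. The 173 called higher in control body columns took 21.2% ± 0.772 of control heads (SD, n = 4) and 29.6% ± 0.356 of control body columns (SD, n = 3), which are the libraries compared to choose them. They took 22.9% ± 1.27 of RNAi heads and 29.9% ± 0.659 of RNAi body columns (SD, n = 4 each). The RNAi libraries were not compared for this choice, but they entered the 500 CPM limit and the fit's shared estimate of spread. The 47 called higher in heads took 8.78% ± 0.370 of RNAi heads and 5.56% ± 0.139 of RNAi body columns (SD, n = 4 each). In both groupings the RNAi heads and the RNAi body columns did not overlap.

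In heads after RNAi, 94 members were called higher and 1 lower, or 9 higher and 4 lower once the trend with abundance was taken out of each library. That removal subtracts a smooth trend fitted over all transcripts, so by construction it takes away much of any shift graded with abundance. Each local fit used a span of 0.5 of the transcripts, so the members need not be centred on 0. Their median was then −0.020 in heads, −0.098 in body columns and −0.18 between control tissues. How well the trend fits at their level was not tested. The 95 called members were 34.4%, against 4.76% of all transcripts tested (2.65% higher and 2.11% lower). A change of a given size is easier to call in members, whose median SE here was 0.069 on the log2 scale against 0.34 over all transcripts tested. The median size of the called changes was 0.27 on the log2 scale, and 5 of the 276 members reached 1, against 391 of 31142 transcripts tested. The quartiles over all members were 0.11 and 0.25. Of the members, 245 lay above 0, or 114 with the trend removed. The groups did not overlap for 144, against 13.2% of all transcripts.

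The shift was graded with abundance and not specific to the limit of 500 CPM. The median change in RNAi heads was 0.20 among members (−0.020 with the trend removed), 0.14 at 100 to 500 CPM, 0.065 at 10 to 100 CPM and −0.072 at 1 to 10 CPM, and the median of all transcripts tested was −0.020. In the 100 to 500 CPM class 232 transcripts were called higher and 42 lower (22.8%), and in the 10 to 100 CPM class 393 and 335 (9.02%). With the trend removed, 4.71% of the members and 3.03% of all transcripts were called. Of the 95 members, 10 were then still called in the same direction, and 22 lay on the other side of 0. Scaling by library totals alone left 20 members higher and 1 lower, 7.61%, against 3.56% of all transcripts (0.861% higher and 2.70% lower). It shifted the median of all transcripts to −0.14. The members lay 0.22 above that median with TMM factors and 0.23 above it with totals alone. The composition factors themselves ranged from 1.04 to 1.12 in control heads and from 0.928 to 1.04 in RNAi heads. Single libraries mattered as well: 53 members were called without control head 2, 60 without RNAi head 2 and 49 without RNAi head 4. With no filter on low counts 45 were called.

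**Figure D4:**
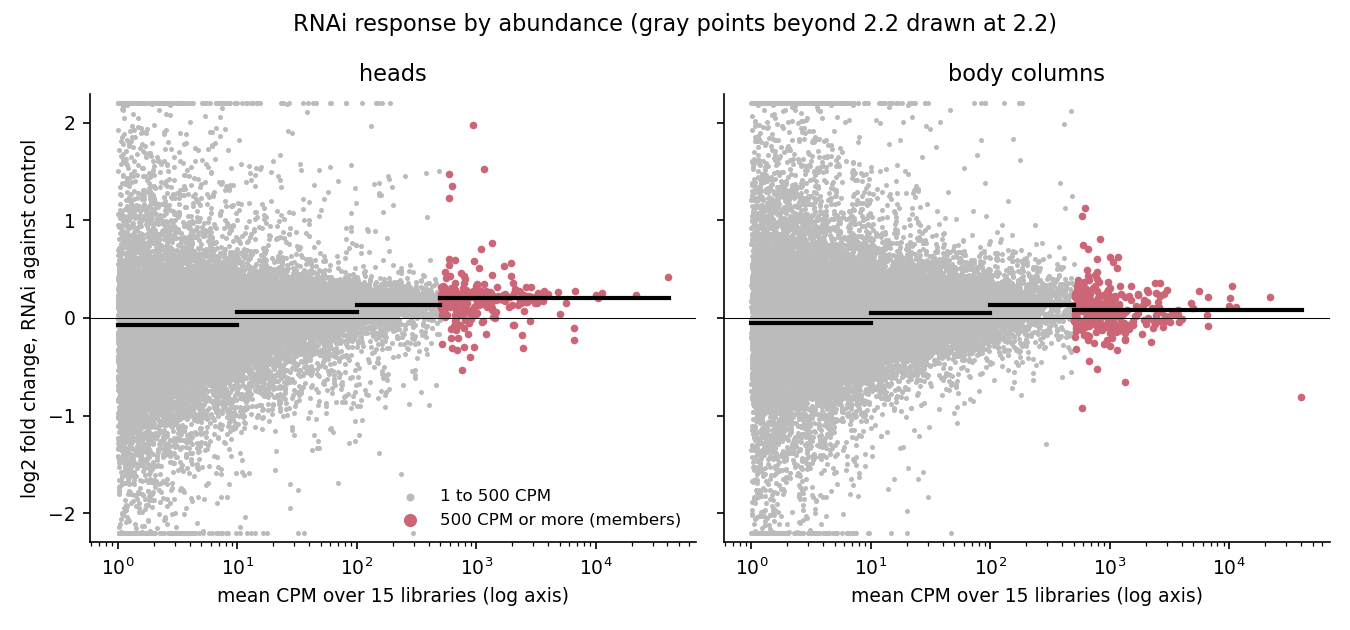
Log2 fold change of RNAi against control (vertical) by mean CPM over 15 libraries (horizontal, log axis), for members (red) and transcripts at 1 to 500 CPM (gray), in heads and body columns; black bars are medians by class. The members' medians are 0.20 in heads and 0.079 in body columns, and −0.020 and −0.098 once the trend with abundance is removed.

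A few members changed far more than this shift. GGKF01003961.1, the body column transcript above, measured 402, 504, 504 and 445 TMM-scaled CPM in RNAi heads, against 78.1, 151, 152 and 91.0 in control heads. Every RNAi head exceeded every control head, and all stayed under the lowest control body column. The rise was 1.98 on the log2 scale (SE 0.18, edgeR adjusted p = 5.72e-05) and 1.78 with the trend removed. GGKF01023467.1 measured 201, 384, 546 and 248 in control heads and 903, 1041, 1145 and 871 in RNAi heads, without overlap. It rose by 1.52 (SE 0.25, edgeR adjusted p = 0.00254), and by 1.32 with the trend removed. Control body columns averaged 1377 ± 278 (SD, n = 3) and RNAi body columns 2119 ± 146 (SD, n = 4), which missed the threshold (edgeR adjusted p = 0.25).

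The only member called lower in RNAi heads was GGKF01068147.1. It measured 970, 1017, 1238 and 1168 TMM-scaled CPM in control heads and 880, 845, 841 and 768 in RNAi heads, without overlap. The fall was −0.40 on the log2 scale (SE 0.081, edgeR adjusted p = 0.0109). It had been higher in control heads than in control body columns by 0.53 (edgeR adjusted p = 0.000327), and after RNAi the difference was 0.039 (edgeR adjusted p = 0.815). The test of the change between these differences missed the threshold, at −0.49 (edgeR adjusted p = 0.0602), and passed it with library totals alone (adjusted p = 0.0319) and with the trend removed (adjusted p = 0.0223). The tissue and the RNAi comparisons use the same control heads, so these values are not independent.

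**Figure D5:**
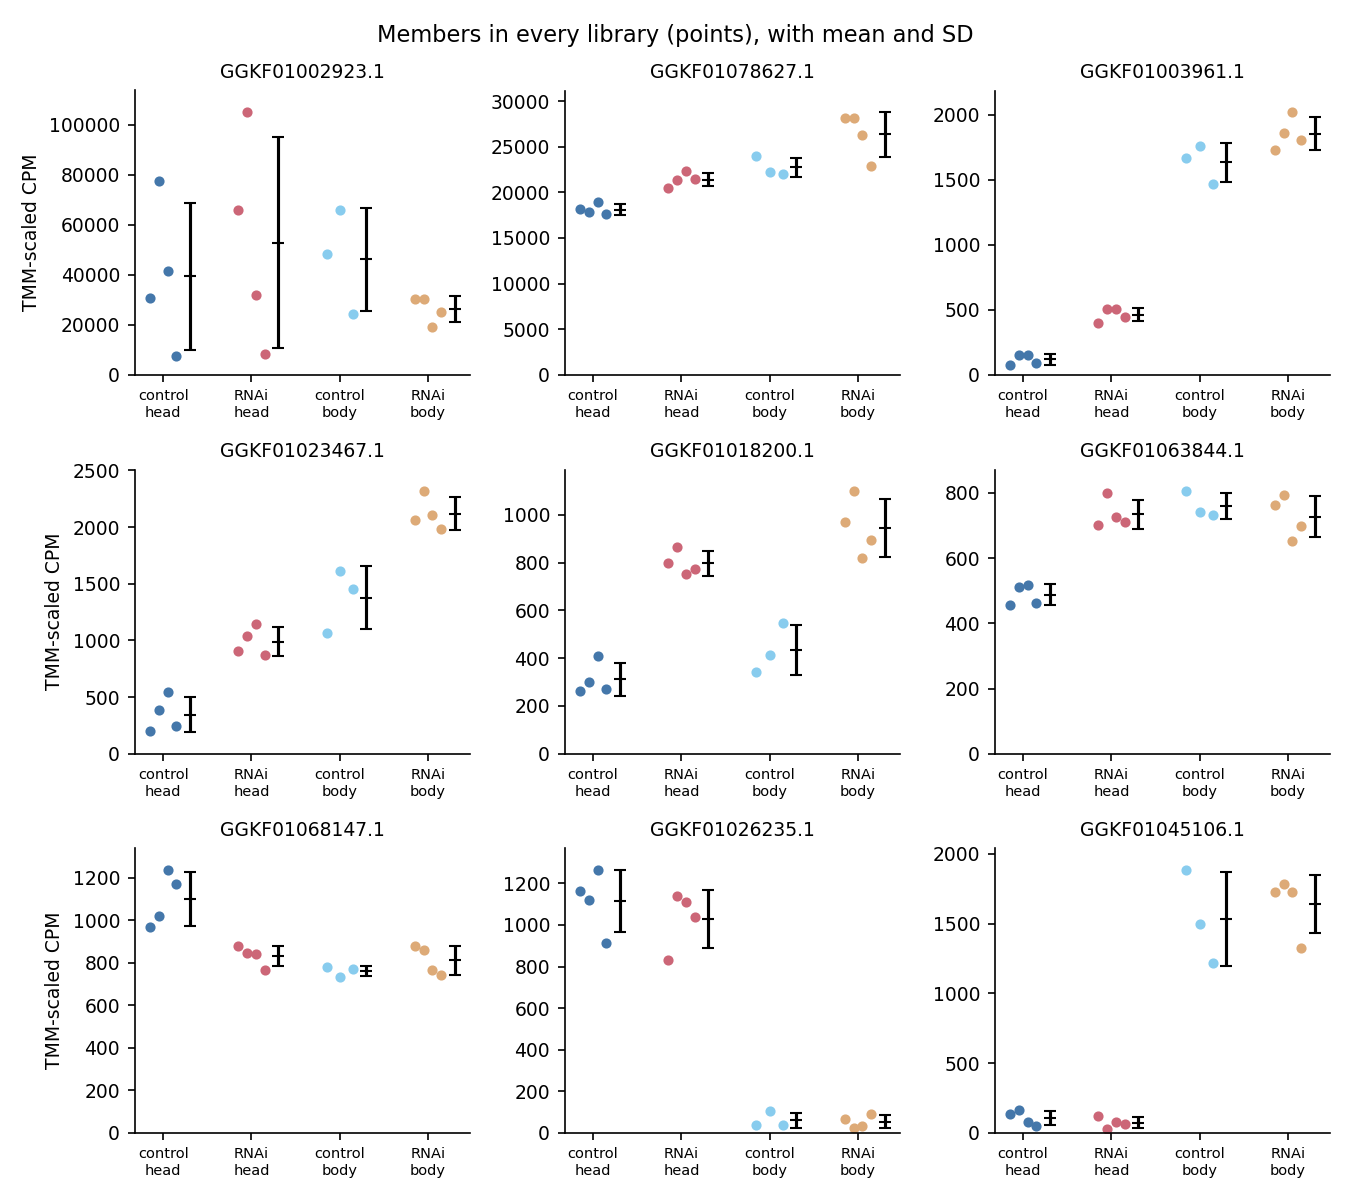
TMM-scaled CPM of 9 members in each of the 15 libraries (points), with mean and SD of each group (black; 4 libraries each, 3 for control body columns). GGKF01003961.1 was at most 152 in control heads and between 402 and 504 in RNAi heads, and GGKF01002923.1 ranged from 7496 to 105288.

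In body columns fewer members were called after RNAi. Of the 276, 34 were called higher and 0 lower by edgeR, 12.3%, against 2.06% of all transcripts tested (1.51% higher and 0.543% lower). The direction turned with the trend with abundance removed, with 4 higher and 13 lower, 6.16%, against 1.11% of all transcripts. At an unadjusted p under 0.05, 82 members lay above 0 and 11 below, against 9.85% and 6.94% of all transcripts. DESeq2 called 60 members higher and 7 lower, against 5.10% and 2.93% of all transcripts. The median over members was 0.079 on the log2 scale, against 0.011 over all transcripts, and became −0.098 with the trend removed. The groups did not overlap for 85 members, against 15.8% of all transcripts. In the 100 to 500 CPM class the called share was no smaller, with 154 higher and 8 lower (13.5%). The median of that class was 0.13, above that of the members. Its groups did not overlap for 40.6% of transcripts, against 30.8% of the members. The shift in body columns was therefore not largest among the members.

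These counts were fragile. Scaling by library totals alone called 5 members, 1.81%, against 0.459% of all transcripts, so calls were lost over all transcripts as well. Leaving out 1 library called 15 without control body column 2, 4 without control body column 3, and 15, 16 and 18 without RNAi body columns 1, 2 and 3. With the body columns fitted apart from the heads 5 were called, and with no filter on low counts 14.

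The largest changes in body columns belonged to a pair of contigs with consecutive IDs. GGKF01018200.1 measured 343, 412 and 547 TMM-scaled CPM in control body columns and 971, 1101, 818 and 893 in RNAi body columns, without overlap. It rose by 1.12 on the log2 scale (SE 0.17, edgeR adjusted p = 0.00886), and by 0.96 with the trend removed. In heads it measured 265, 301, 410 and 270 in controls and 796, 867, 750 and 771 after RNAi, a rise of 1.36 (SE 0.16, edgeR adjusted p = 0.000255). GGKF01018199.1 measured 374, 370 and 544 in control body columns and 937, 1026, 776 and 793 in RNAi body columns, a rise of 1.04 (SE 0.18, edgeR adjusted p = 0.0141). It did not pass the threshold without control body column 2 (adjusted p = 0.0502) or without control body column 3 (adjusted p = 0.0731). In control animals GGKF01018200.1 was lower in heads than in body columns by −0.48 (edgeR adjusted p = 0.0429), a call lost with library totals alone (−0.37, adjusted p = 0.104) and with the trend removed (−0.33, adjusted p = 0.159). The RNAi effects in the tissues differed by 0.23 for this contig, which missed the threshold (edgeR adjusted p = 0.719).

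The RNAi comparisons in heads and in body columns share no library. Called in both were 23 members, all higher, which is 24.2% of the 95 called in heads and 67.6% of the 34 called in body columns. Over all 276, the sign was the same in both tissues for 175 and opposite for 101. Since 245 members lay above 0 in heads and 180 in body columns, most would share a sign without any relation between the tissues. The same counts over all transcripts are not given here.

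The difference between the RNAi effects in head and body column passed the threshold for few members. It was called for 6 that were more positive in heads and 0 that were more negative by edgeR, 2.17%, against 1.57% of all transcripts (0.501% more positive and 1.07% more negative). At an unadjusted p under 0.05, 71 members were more positive and 10 more negative, against 6.22% and 7.65% of all transcripts. DESeq2 called 36 members and 1, against 2.41% and 3.39%. Library totals alone gave 3 and 1 (1.45%, against 1.32% of all transcripts), and removal of the trend 5 and 1 (2.17%, against 1.62%). Without control body column 3, 3 were called. The most positive was GGKF01003961.1, whose RNAi effect in heads exceeded that in body columns by 1.79 on the log2 scale (SE 0.26, edgeR adjusted p = 0.00372). In body columns it measured 1732, 1864, 2026 and 1804 TMM-scaled CPM after RNAi, overlapping the control range, with a change of 0.18 (edgeR adjusted p = 0.726).

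Next was GGKF01063844.1, which measured 457, 513, 518 and 463 TMM-scaled CPM in control heads and 701, 799, 727 and 711 in RNAi heads. Control body columns gave 807, 741 and 733, and RNAi body columns 763, 793, 652 and 698. Only the control heads stood apart. Its effects differed by 0.66 on the log2 scale (SE 0.10, edgeR adjusted p = 0.00585). The tissue difference was −0.64 in controls (edgeR adjusted p = 1.49e-05) and 0.016 after RNAi (edgeR adjusted p = 0.923).

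Whether members are parts or near copies of 1 sequence cannot be told from their IDs. Neighbouring accession numbers, at most 5 apart, joined 62 members into 27 runs, the longest of 5. Deviations from the group means correlated at a median r of 0.669 over the 47 pairs within runs, against 0.186 over all 37950 pairs of members, and 25.5% against 1.32% of the pairs reached 0.9. These pairs share libraries and, where similar, reads. Between control tissues 208 of the 276 members lay below 0, so many runs would lie on 1 side of 0 without any relation. In 23 of the 27 runs all members lay on the same side. An exception, chosen after its values were seen, was the run that holds GGKF01018199.1 and GGKF01018200.1. Its most abundant contig, GGKF01018202.1, averaged 9324 ± 1034 TMM-scaled CPM in control heads and 7953 ± 893 in RNAi heads (SD, n = 4 each), a change of −0.23 that missed the threshold (edgeR adjusted p = 0.455). Control body columns averaged 3948 ± 971 (SD, n = 3) and RNAi body columns 4040 ± 349 (SD, n = 4). GGKF01018202.1 was thus higher in control heads than in control body columns, by 1.24 (SE 0.15, edgeR adjusted p = 2.08e-05), while GGKF01018199.1 and GGKF01018200.1 were not. By contrast GGKF01023468.1, also chosen after its values were seen, rose in RNAi heads by 1.48 (SE 0.28, edgeR adjusted p = 0.00787), close to the 1.52 of GGKF01023467.1 beside it.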

How the data were processed

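The deposited table holds estimated counts (expected counts) that the authors made per contig of a transcriptome assembly, with no scaling to a common total, as its values show. The submitters' processing notes name Salmon, with no version, and DESeq2 1.26.0, without their roles; the assembly, settings and filters are not given in the sources used here. Such programs divide reads between similar contigs, so values of single contigs are uncertain. Of the members' nonzero values 70.0% were not whole.

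Counts were rounded, filtered with filterByExpr of edgeR 4.0.16 in R 4.3.3, scaled with TMM factors and fitted with glmQLFit as 1 mean for each of the 4 groups. P-values were adjusted (Benjamini-Hochberg) over 31142 transcripts. Each SE was derived as the size of the log2 change divided by the square root of the F statistic of its quasi-likelihood test. The fit was tested on simulated data with 28950 transcripts: of 100 members changed by 1 on the log2 scale in RNAi heads, 94% were recovered, and of 100 other transcripts 38%. Equally many were raised and lowered, so the simulation held no shared shift. It does not cover changes of the size called among members in heads (median 0.27). Members and lists were chosen with earlier results of these data known. Named transcripts are the 3 most abundant, the largest called rises and falls without overlap (at most 2 each per comparison), the largest differences of RNAi effects, the most and least variable, those beside the limit, and those most like the first. Alternatives were RLE factors, library totals alone, TMM without the members, DESeq2 1.42.0, no filter, a replicate block, only the groups compared, each library left out, a log2 change of at least 1, and limits of 250 and 1000 CPM. Added after the data were seen were lowess offsets that remove each library's trend with abundance, and leaving out the most abundant transcript.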

Additional observations from a re-analysis of the deposited data

Results flagged for a closer look

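Groups of 4 libraries were examined 66 times, for the named transcripts and for the share held by the members, and 4 held a library far from its others by Dixon's test, and chance gives about 1 in 20. They were GGKF01041054.1, just under the abundance limit, at 722 TMM-scaled CPM in control head 1. The next was GGKF01026231.1 at 924 in RNAi head 1. GGKF01055043.1, among the least variable members, was at 486 in RNAi head 1, and GGKF01045106.1 was at 1326 in RNAi body column 4. The RNAi effect differed between tissues for GGKF01003961.1, by 1.79 on the log2 scale, and for GGKF01063844.1, by 0.66, both more positive in heads by a test of the difference itself.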

How the results depend on the processing

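Counts are members called. In heads (95), totals alone gave 21, no filter 45, the trend removed 13, a log2 change of at least 1 gave 5, a limit of 1000 CPM 51 of 124 and of 250 CPM 178 of 561. In body columns (34) the same settings gave 5, 14, 17, 2, 14 and 85, only the groups compared 5 and DESeq2 67. Control tissues (220) gave 34 at a change of 1, and 105 and 420 at the limits of 1000 and 250 CPM; tissues after RNAi (199) gave 28, 93 and 384. The difference of effects (6) gave 3 without a filter, 37 with DESeq2, 1 at a change of 1, and 0 and 17 at those limits. At 1000 CPM the share held was 32.4% of control heads, 36.1% of control body columns, 34.7% of RNAi heads and 34.9% of RNAi body columns, and at 250 CPM 52.1%, 56.1%, 54.8% and 55.7%. The limits and the change of 1 alter what is counted; the cause of the other moves was not tested. Leaving out 1 library gave 49 to 99 in heads, 4 to 33 in body columns, 205 to 224 and 182 to 200 between tissues in controls and after RNAi, and 3 to 8 for the difference. Library shares then ranged over 41.6% to 43.1% (control heads), 44.2% to 46.1% (RNAi heads), 45.7% to 47.7% and 45.4% to 46.0% (control and RNAi body columns), and the median CV over 5.80% to 6.53%.

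Deviations of same-numbered libraries, over all transcripts tested, correlated at −0.0357 to 0.0403 over 14 pairs. The median CV of these transcripts was 28.6%, so this does not exclude that replicate numbers pair the samples. The most abundant transcript was highest in replicate 2 and lowest in replicate 4 in both head groups, while its order differed between the body column groups. With the replicate number as a block, 57 members were called in heads, 7 in body columns and 3 for the difference. For transcripts named as largest changes, each in the comparison it was named for, 271 values under the alternatives kept direction and side of the threshold and 6 kept direction only. Values of the most abundant transcripts are outside this tally, and some change sign with the trend removed.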
